A study of Mus musculus with 2 samples.

Results

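Histone genes were examined in ribosome-depleted liver libraries of NOG-TKm30 mice, taking each row of the deposited table whose symbol begins with Hist1h to Hist4h, H2af or H3f3. This gave 68 of the 15348 listed genes, of which 59 were replication-linked genes (the Hist symbols) and 9 were variant genes (H2af and H3f3). NOG-TKm30 mice are immunodeficient NOG mice that express cDNA of the herpes simplex virus thymidine kinase (HSVtk) mutant clone 30, and the enhancer and promoter of the mouse transthyretin gene, a gene of hepatocytes, drive it. By their labels both groups were 16-week-old females of this strain, whereas the columns of the deposited table carry the word Wild, which the sources used here do not explain. The treated group was given the aromatic amine ortho-toluidine (OTD), 0.6% during 1 week followed by 0.3% during 3 weeks, and the control group received 0% for the same 4 weeks. Each group is 1 library of mixed liver RNA, from 3 control mice and from 5 OTD mice. C57BL mice are named in the treatment protocol, but NOG-TKm30 in the strain label and the design text.

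Nucleosomes wrap DNA around core histones H2A, H2B, H3 and H4, and the linker histone H1 binds where the DNA enters and leaves. Replication-linked histone genes lie in clusters and are mainly expressed in S phase, and their mRNAs usually end in a conserved stem-loop in place of a poly(A) tail. The stem-loop-binding protein SLBP binds this loop and guides processing, translation and decay of the mRNA. Variant genes, such as those for H3.3 and H2A.Z, are expressed through the cell cycle and usually give spliced, polyadenylated mRNAs. Of the variant members, H2afj, H2afx and the annotated pseudogene H2afy3 have 1 exon in their longest annotated transcript. Most hepatocytes of an adult liver do not divide. Libraries made by ribosomal RNA depletion hold RNAs both with and without a poly(A) tail, so that both classes can be read in them.

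The stem-loop sites of the members that the results turn on are shown because this element sets the replication-linked class apart. Each is written 5′ to 3′ as DNA letters of the GENCODE M21 transcript on GRCm38 (the mm10 assembly), with the 16 bases of the loop and its 6-base-pair stem in capitals and up to 5 flanking bases in lower case.
Hist1h1c, chr13:23739507-23739532, plus strand: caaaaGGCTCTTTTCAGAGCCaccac
Hist1h1e, chr13:23621777-23621802, minus strand: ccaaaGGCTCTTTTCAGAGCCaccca
Hist2h2aa1, chr3:96246027-96246052, plus strand: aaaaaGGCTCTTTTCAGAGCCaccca
Hist1h2ao, chr13:21810893-21810918, plus strand: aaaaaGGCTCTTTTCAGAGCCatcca
Hist1h2ap, chr13:21833026-21833049, minus strand: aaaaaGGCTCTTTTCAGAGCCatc
Hist1h3d, chr13:23576239-23576264, plus strand: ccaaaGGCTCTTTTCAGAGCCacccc
Hist1h4c, chr13:23698084-23698109, minus strand: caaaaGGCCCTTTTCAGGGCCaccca
Hist1h4h, chr13:23531453-23531478, plus strand: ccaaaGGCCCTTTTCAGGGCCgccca
Hist1h4m, chr13:21812124-21812147, plus strand: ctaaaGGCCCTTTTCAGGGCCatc
H2afx, chr9:44335235-44335260, plus strand: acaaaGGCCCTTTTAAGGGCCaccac

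All 10 sites lie after the stop codon. The search took, on the mRNA strand, the stem letters GGNNNT, the loop TNTN and the closing stem ANNNCC in a row, with each of the 6 stem bases paired. A site was found in 40 of 59 replication-linked genes and in 1 of 9 variant genes, H2afx, against 14 of 13891 other listed protein-coding genes (0.101%). The searches differed: in members a site had to lie after the stop codon, in any annotated coding transcript. In the other genes a site counted anywhere in the longest protein-coding transcript. Among the 14 replication-linked genes with fewer than 40 annotated bases after the stop codon it was found in 0, which says only that these letters are not in the annotated transcript. The letters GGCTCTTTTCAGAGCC were the most common form and stood in 22 of the 40 genes, while the H4 genes printed above carried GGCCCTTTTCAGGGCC.

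A level below is a value of the deposited table, which the authors scaled to a nearly common total per library. Each value was a whole multiple of the value of 1 read, so whole reads could be recovered: 13569189 for control and 14685193 for OTD. On this scale 3 reads gave 0.225 (control) and 0.200 (OTD). Each group had 1 library, so nothing below has a replicate check or a test, and how far pools of one kind vary is unknown. Ratios of levels are OTD over control with 95% counting intervals (exact Clopper-Pearson, computed from how the reads of a gene divide between the libraries), and these cover counting error only. The liver label was met by its defining markers, with Alb at 81661 in control and 69694 in OTD, while 0 of 6 lymphoid markers were among the listed genes. The ribosomal RNA precursor Rn45s stood at 14976 in control and 26106 in OTD. Its part in the histone results was not tested, and the scalings in the closing section include 1 without it.

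Replication-linked genes as a class stood slightly lower in the OTD pool, with a summed level of 451.4 in control (6008 reads) and 410.0 in OTD (6138 reads). The ratio of the sums was 0.908 (0.876 to 0.941). The variant genes summed to 413.4 in control (5503 reads) and 403.5 in OTD (6040 reads), which gave a ratio of 0.976 (0.941 to 1.01). Within each library, where no scaling between libraries enters, replication-linked genes took 52.2% of the histone reads in control (51.3 to 53.1) and 50.4% in OTD (49.5 to 51.3). The ratio of the replication-linked to the variant ratio was 0.931, with a counting interval of 0.885 to 0.979 by a log-normal approximation. Without the 26 replication-linked genes that share over 50% of their sequence stretches with other histone transcripts it was 0.989, and the ratio of the replication-linked sum was then 0.965 (0.923 to 1.01), an interval that holds 1. Those genes also differ in annotated end and length, as given below, and the part of each was not tested.

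The summed level hid different directions in the histone types. H1 genes summed to 37.5 in control and 47.1 in OTD, a ratio of 1.26 (1.12 to 1.41). H2A genes summed to 94.7 and 74.2, a ratio of 0.784 (0.723 to 0.851), and H4 genes to 190.9 and 157.8, a ratio of 0.826 (0.781 to 0.874). H2B genes, at 96.9 and 101.9, had a ratio of 1.05 (0.975 to 1.13), and H3 genes, at 31.4 and 29.1, one of 0.925 (0.807 to 1.06). Linker histone genes were thus higher and H2A and H4 genes lower in the OTD pool, beyond counting error, while the intervals of H2B and H3 held 1. The interval of H2B lay above 1 when the libraries were scaled to the same total, at 1.09 (1.01 to 1.18), and also without Rn45s in that total, at 1.11 (1.03 to 1.19). H4 took 42.3% of the replication-linked reads in control and 38.5% in OTD, and H1 took 8.31% and 11.5%. In bulk liver RNA, fewer cells that express a gene and less RNA per cell cannot be told apart.

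**Figure D1:**
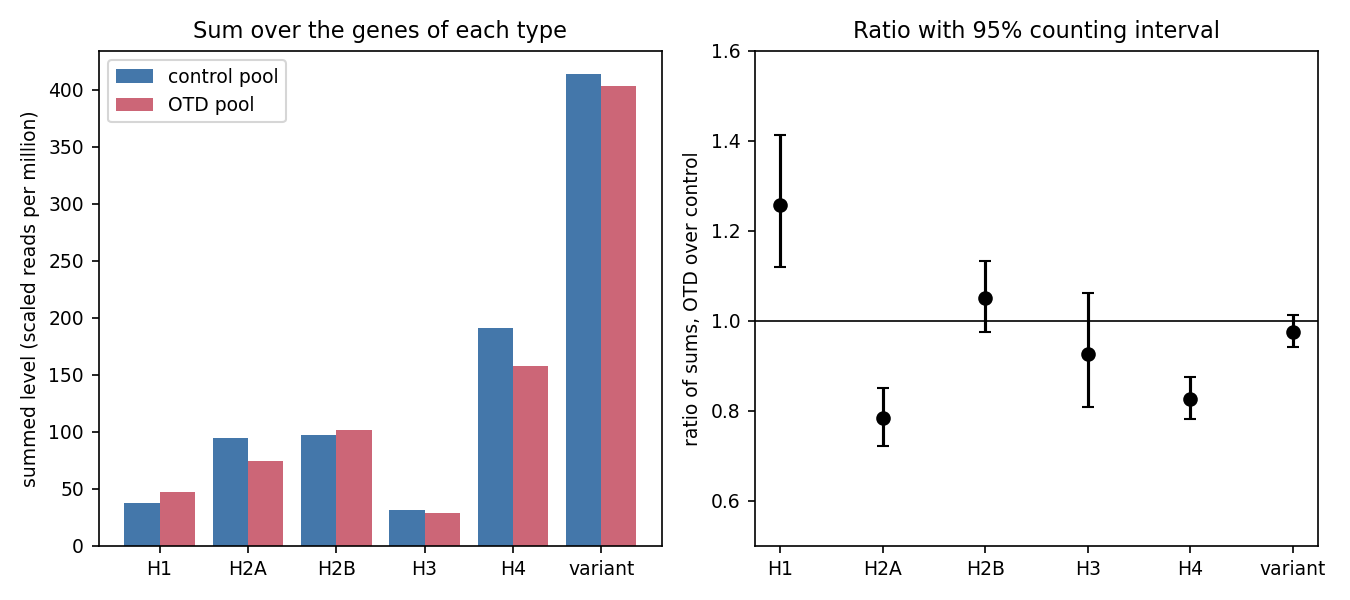
The left panel shows the summed level (scaled reads) of the genes of each replication-linked type and of the variant genes, with 1 bar for the control pool and 1 for the OTD pool. The right panel shows the ratio of OTD over control with its 95% counting interval: H1 lies above 1 at 1.26, H2A (0.784) and H4 (0.826) lie below, and the intervals of H2B, H3 and the variant genes hold 1.

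Single members were counted at a mean level of at least 1, which 39 of the 59 replication-linked genes and 7 of the 9 variant genes reached. Just under this floor were Hist3h2a (7 reads in control, 14 in OTD) and H2afy2 (13 and 8), and just over it Hist1h2ad (18 and 10) and Hist1h2bb (12 and 21). On the scale of log2(level + 1), 3 of the 39 replication-linked genes passed 1.5-fold upwards and 2 downwards. Over all 11956 listed genes at that level the shares were 2.74% higher and 1.33% lower. None of the 7 variant genes passed 1.5-fold in either direction. The replication-linked genes past 1.5-fold were Hist1h2ap, Hist1h3d and Hist2h2be (higher) and Hist1h2ao and Hist1h2ag (lower), and only Hist1h2ap and Hist1h2ao passed 2-fold (backgrounds of 0.326% higher and 0.209% lower). The median log2 ratio was −0.12 over the replication-linked genes and −0.089 over the variant genes, against 0.0068 over all listed genes at that level.

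Counted by read numbers instead, 6 of the 39 replication-linked genes had a counting interval above 1 and 10 had one below 1, shares of 15.4% and 25.6%. Over all listed genes the shares were 15.4% above 1 and 14.2% below 1. Of the 7 variant genes, 1 had an interval above 1 and 2 had one below 1. The share above 1 was thus that of the background, and the share below 1 was larger. The count of 10 became 6 when the libraries were scaled to the same total without Rn45s: Hist1h2bg, Hist1h3a, Hist1h3h and Hist1h4d then held 1. The 4 of these 10 genes that encode H4 were Hist1h4c, Hist1h4d, Hist1h4h and Hist1h4m, and 0 of the 10 H4 genes at that level had an interval above 1.

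**Figure D2:**
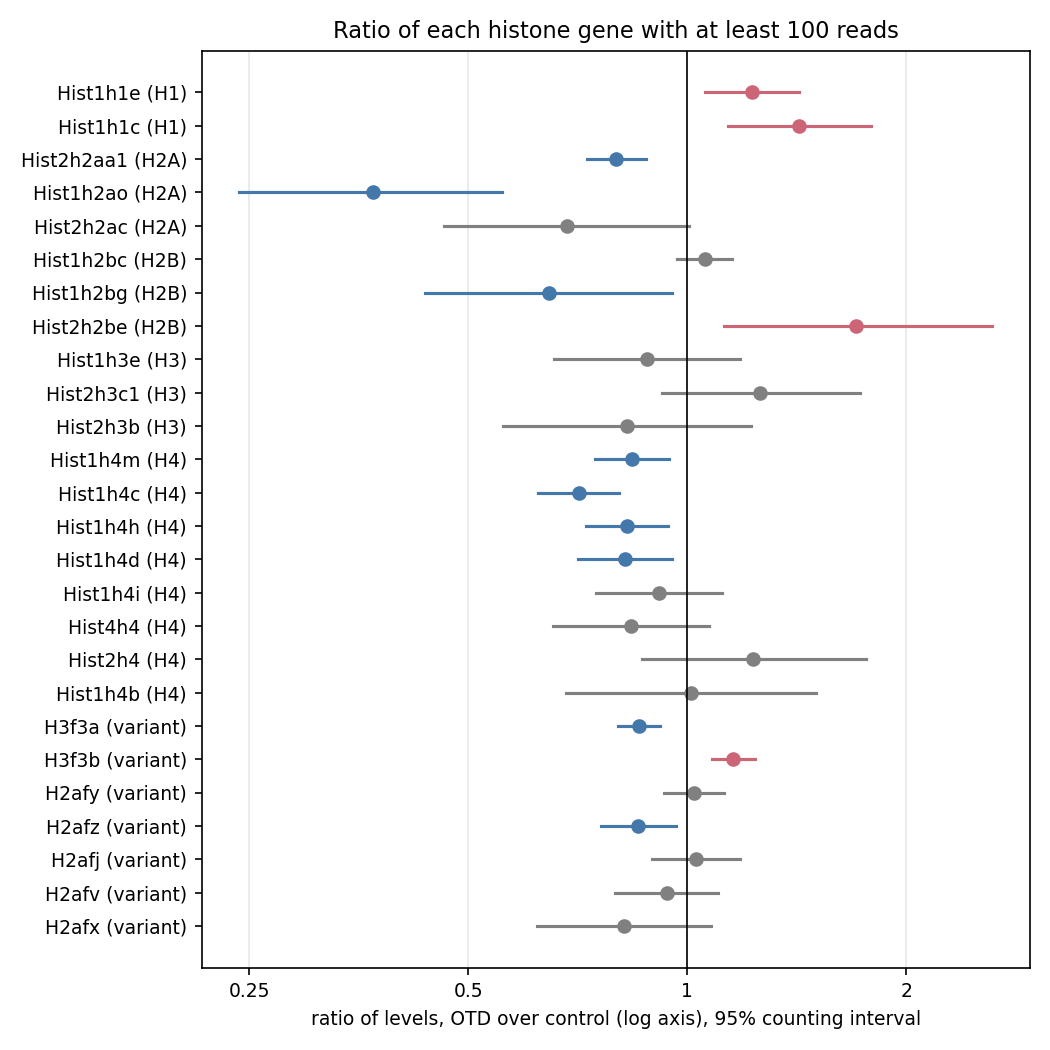
Each point is the ratio of levels (OTD over control, log axis) of 1 histone gene with at least 100 reads over both libraries, and the line is its 95% counting interval. Of the 26 genes, 4 have an interval above 1 (red), 9 have one below 1 (blue) and 13 hold 1 (grey), and the H4 genes with most reads lie to the left of 1. Intervals narrow as reads rise, and the share over all listed genes with at least 100 reads was not computed, so these counts have no background.

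Reads were concentrated in few genes: 8 of the 59 replication-linked genes held 73.0% of the reads of the class. Divided by the length of the longest annotated transcript in kilobases, which allows levels to be compared between genes, the control level was 121.5 for Hist2h2aa1, 110.6 for Hist1h4m and 79.0 for Hist1h4h. On the same scale Hist1h2bc stood at 63.0, H3f3a at 48.9, H3f3b at 43.6 and H2afz at 40.6. On this scale some replication-linked genes were therefore at or above the level of the variant genes in this tissue. Undivided, H3f3a (138.9) and H3f3b (109.6) lay above Hist1h2bc (72.8), the highest replication-linked gene in control. Of the stretches of Hist2h2aa1 89.2% and of Hist1h4m 89.8% occur in other histone transcripts, against 45.8% for Hist1h4h and 29.4% for Hist1h2bc. Whether the longest annotated transcript is the one expressed was not tested. The lowest read numbers were those of Hist1h4f and the annotated pseudogene H2afy3, each with 1 read in either library.

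**Figure D3:**
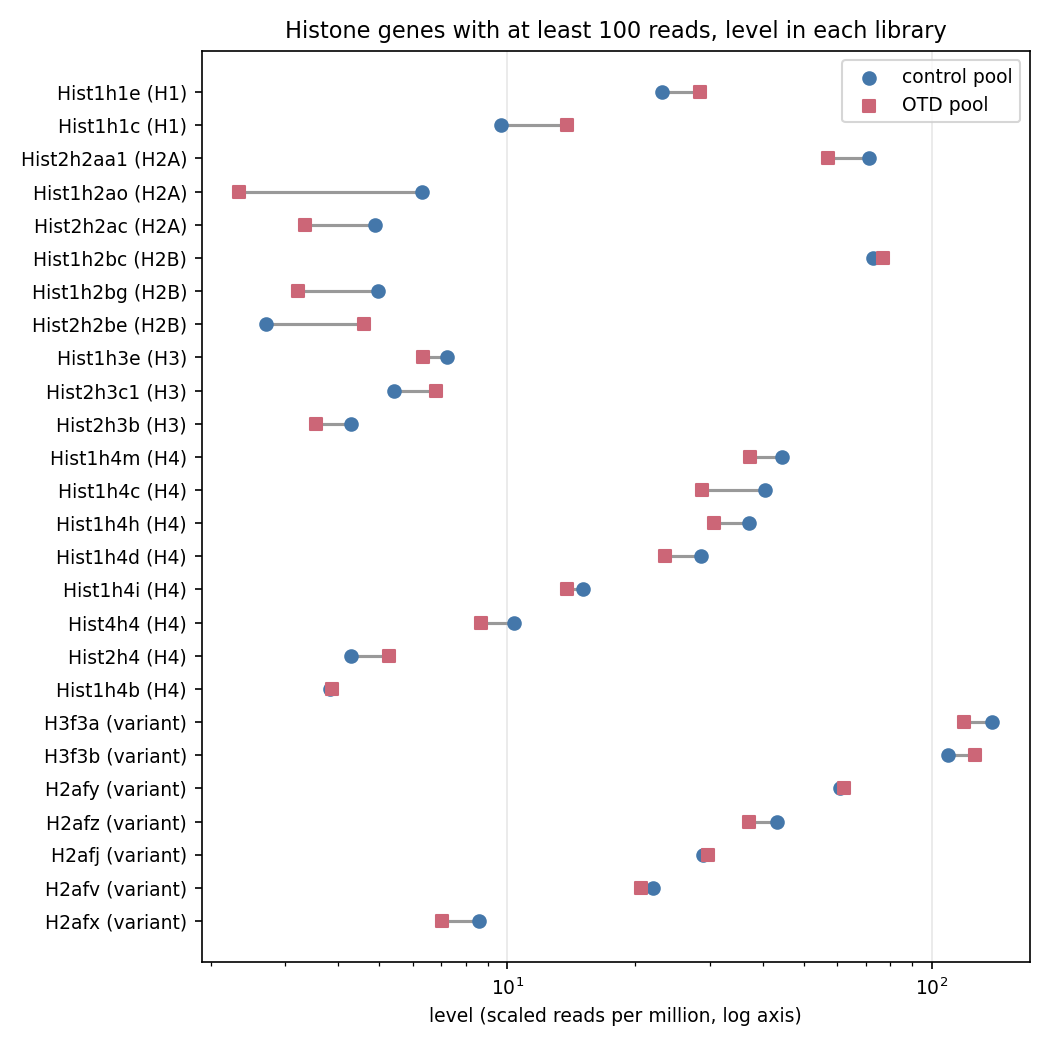
Each row is 1 of the 26 histone genes with at least 100 reads, with its level (scaled reads, log axis, not divided by length) in the control pool (circle) and in the OTD pool (square). H3f3a and H3f3b have the highest levels and exchange order between the pools, and the H1 genes move to the right while Hist2h2aa1 and the H4 genes of highest level move to the left.

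Linker histones compact chromatin, and 3 of their 5 replication-linked genes carried nearly all of the H1 reads. Hist1h1e stood at 23.2 in control against 28.5 in OTD (309 against 427 reads), which gave a ratio of 1.23 (1.06 to 1.43). Hist1h1c had 9.69 and 13.8 (129 against 207 reads), which gave a ratio of 1.43 (1.14 to 1.79). Both were higher in the OTD pool beyond counting error, under each of the 3 other scalings too. Hist1h1d, at 33 and 50 reads, had a ratio of 1.35 (0.851 to 2.16), which was not distinguishable from 1 at this depth. The gene of Hist1h1e overlaps that of Hist1h2be on the same strand, and 23.8% of its 50-base stretches occur there, so reads in the overlap cannot be assigned with certainty. H1f0, a replacement linker histone gene of non-dividing cells that is no member by its symbol, stood at 98.9 in control and 123.0 in OTD, a ratio of 1.24 (1.16 to 1.34).

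Of the H2A genes, Hist2h2aa1 held 75.2% of the reads in control and 76.7% in OTD. Its level was 71.2 in control and 56.9 in OTD (948 against 852 reads), which gave a ratio of 0.799 (0.728 to 0.877). This member of the Hist2 cluster has a neighbouring copy, Hist2h2aa2, which is not analysed here and holds 89.2% of its 50-base stretches, and Gm20634 overlaps it on the same strand, so the reads of Hist2h2aa1 cannot be assigned with certainty. Without Hist2h2aa1 the other 14 H2A genes had a ratio of sums of 0.738 (0.624 to 0.873). Several of these are shared copies too: 93.5% of the stretches of Hist1h2ao occur in other histone transcripts, against 38.6% for Hist2h2ac. The reads of this sum therefore have the same limit. Every H2A member also overlaps an annotated gene on the opposite strand, and whether strand was used in counting is not given in the sources used here. Among the other replication-linked types only Hist1h4b, Hist2h2bb and Hist2h3b have such an overlap. Hist1h2ag, with 30 and 13 reads, had a ratio of 0.385 (0.184 to 0.761), and it was named after its value was seen. Of its stretches, 78.9% occur in other histone transcripts and 71.8% in Hist1h2ap, so its reads cannot be assigned with certainty either.

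Hist1h2ao and Hist1h2ap are near-identical H2A copies with opposite ratios. Hist1h2ao stood at 6.31 in control and 2.34 in OTD (84 against 35 reads), which gave a ratio of 0.370 (0.242 to 0.556). Hist1h2ap stood at 0.526 and 3.07 (7 against 46 reads), which gave a ratio of 5.84 (2.62 to 15.3). These were the lowest and the highest log2 ratios of all histone genes at a mean of at least 1, and they pointed in opposite directions. The transcripts share 93.5% of the 50-base stretches of Hist1h2ao, and their stem-loop sites above differ only where the annotated transcript of Hist1h2ap ends. Summed, the pair had 91 reads in control and 81 in OTD, a ratio of 0.791 (0.579 to 1.08), which was not distinguishable from 1. How reads were divided between the copies is not given in the sources used here, and its part was not tested. Hist1h2bq and Hist1h2br, whose transcripts share 97.3% of the stretches of Hist1h2bq, were listed with the same reads, 12 in control and 2 in OTD.

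H2B reads were led by Hist1h2bc, at 72.8 in control and 77.0 in OTD (969 against 1152 reads), which gave a ratio of 1.06 (0.970 to 1.15). Scaled to the same total, its ratio was 1.10 (1.01 to 1.20). No stem-loop was found in its annotated transcript, which has 2 exons. Hist1h2bg, at 4.96 and 3.21 (66 against 48 reads), had a ratio of 0.647 (0.436 to 0.952). Hist2h2be went the other way, at 2.70 and 4.61 (36 against 69 reads), with a ratio of 1.70 (1.12 to 2.63). The latter is a single-exon gene of 2620 bases that shares no 50-base stretch with other histone transcripts. Hist1h2bl, named after its value was seen, had 23 and 46 reads and a ratio of 1.78 (1.06 to 3.07), and 82.8% of its stretches occur elsewhere.

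H2A and H2B genes often lie head to head, and 10 such pairs were found among the members, with 176 to 302 bases between the starts. Hist2h2ac and Hist2h2be form 1 of them on chromosome 3, 239 bases apart. Hist2h2ac had 4.88 in control and 3.34 in OTD (65 against 50 reads), which gave a ratio of 0.684 (0.463 to 1.004), against the 1.70 of Hist2h2be. The ratios of this pair lay on opposite sides of 1, but the interval of Hist2h2ac, which reached 1.004, held 1. This stretch is printed because both genes start from it. It is the 250 bases before the start of Hist2h2ac in RefSeq on GRCm38.p6, read 5′ to 3′ on the minus strand towards that gene, with the searched motifs in capitals.
Hist2h2ac promoter, chr3:96220881-96221130, minus strand: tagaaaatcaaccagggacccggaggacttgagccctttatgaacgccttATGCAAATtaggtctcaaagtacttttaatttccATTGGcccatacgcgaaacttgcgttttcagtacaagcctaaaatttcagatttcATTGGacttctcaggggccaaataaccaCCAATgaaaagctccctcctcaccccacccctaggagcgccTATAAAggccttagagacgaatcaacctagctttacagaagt

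The capitals are the octamer ATTTGCAT, which OCT1 binds in H2B promoters, the CCAAT box and the TATA box TATAAA, each searched on both strands. Promoters of 61 of the 68 members were matched in the RefSeq table, in windows from 250 bases before to 50 after the start. The octamer stood in 7 of 14 H2B and 6 of 15 H2A promoters, in 0 of 5 H1, 0 of 9 H3 and 0 of 11 H4 promoters, and in 1.70% of 32789 other promoters. Windows of head-to-head genes overlap, so their H2A and H2B matches are partly the same bases. The CCAAT letters stood in every H1, H2A, H2B and H3 window matched, in 3 of 11 H4 windows and in 37.3% of the others. TATAAA stood in 4 of 5 H1, 10 of 15 H2A, 6 of 14 H2B, 4 of 9 H3 and 7 of 11 H4 promoters. It also stood in 1 of 7 variant promoters and in 13.5% of the others. A match is a description of the letters and no evidence of binding.

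**Figure D4:**
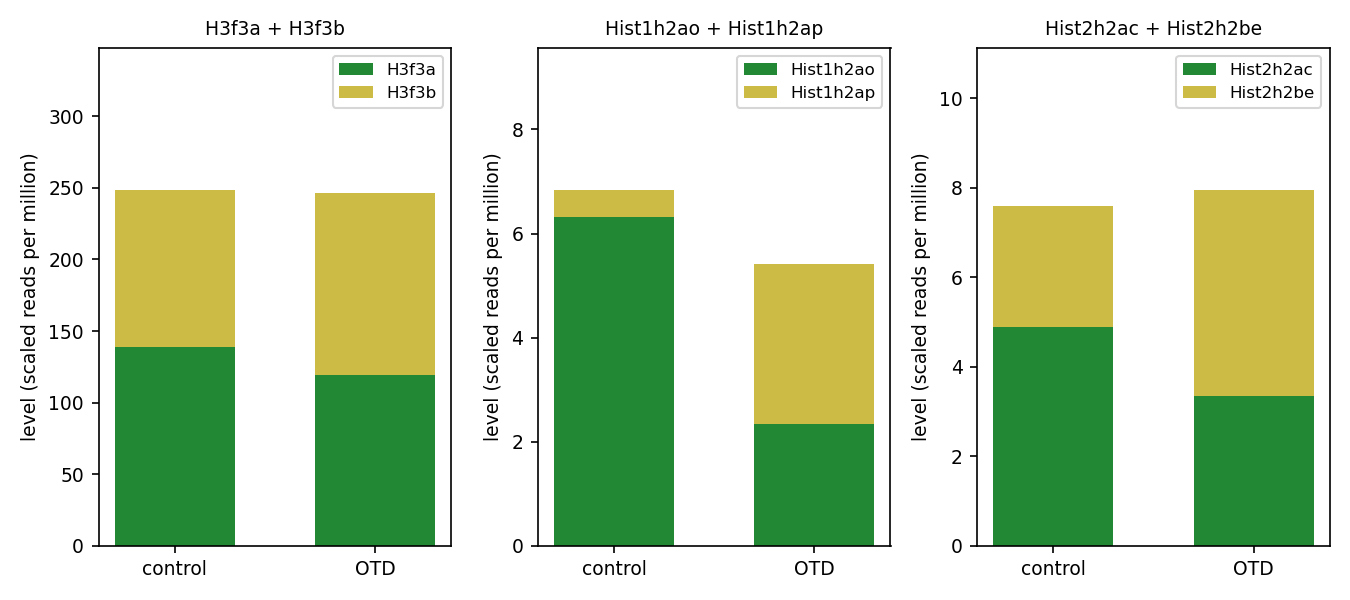
Stacked bars give the level (scaled reads) of both genes of a pair in the control and the OTD pool, for the H3.3 genes H3f3a and H3f3b, the near-identical H2A copies Hist1h2ao and Hist1h2ap, and the head-to-head genes Hist2h2ac and Hist2h2be. In each pair the upper gene takes a larger share in the OTD pool, and the sum of H3f3a and H3f3b stays at 248.5 and 246.1.

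No H3 gene dominated its type: Hist1h3e, the one with most reads, held 23.0% of them in control. Hist1h3e had 7.21 in control and 6.35 in OTD (96 against 95 reads), which gave a ratio of 0.880 (0.656 to 1.18). Hist2h3c1 had 5.41 and 6.81 (72 against 102 reads), which gave a ratio of 1.26 (0.922 to 1.73), and Hist2h3b had 4.28 and 3.54 (57 against 53 reads), which gave a ratio of 0.827 (0.558 to 1.22). All 3 intervals held 1. Hist1h3d, named after its value was seen, stood at 1.503 and 3.07 (20 against 46 reads), which gave a ratio of 2.05 (1.19 to 3.65). Hist1h3h, also named after its value was seen, had 53 and 38 reads and a ratio of 0.637 (0.409 to 0.985), and 93.9% of its stretches occur in other histone transcripts.

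H4 is encoded by many separate genes for the same protein, and the 3 H4 genes with most reads were each lower in the OTD pool. Hist1h4c stood at 40.5 in control and 28.7 in OTD (539 against 430 reads), which gave a ratio of 0.709 (0.623 to 0.807). Hist1h4h stood at 37.1 and 30.7 (494 against 459 reads), which gave a ratio of 0.826 (0.726 to 0.940), and Hist1h4m at 44.5 and 37.3 (592 against 559 reads), which gave a ratio of 0.840 (0.747 to 0.944). These 3 intervals stayed below 1 under each of the 3 other scalings. Hist1h4c shares 19.6% of its 50-base stretches with other histone transcripts and Hist1h4m 89.8%. Hist2h4, with 57 and 79 reads, had a ratio of 1.23 (0.866 to 1.76), and Hist4h4, with 138 and 130 reads, one of 0.838 (0.654 to 1.07).

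By cluster, the 49 genes of Hist1, the major cluster on chromosome 13, had a ratio of sums of 0.920 (0.883 to 0.958), from 343.9 in control to 316.3 in OTD. The 8 genes of Hist2 on chromosome 3 had 0.871 (0.805 to 0.942), from 96.5 to 84.1. Their intervals overlapped. Scaled to the same total without Rn45s, the interval of Hist1 held 1, at 0.967 (0.929 to 1.01), and that of Hist2 stayed below 1, at 0.916 (0.847 to 0.991). Hist3 had 1 listed gene, Hist3h2a, with 21 reads in all, and Hist4 had Hist4h4.

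Among variant genes the H3.3 genes H3f3a and H3f3b, which encode the same protein, exchanged order. H3f3a stood at 138.9 in control and 119.2 in OTD (1849 against 1785 reads), which gave a ratio of 0.858 (0.804 to 0.917). H3f3b stood at 109.6 and 126.9 (1459 against 1899 reads), which gave a ratio of 1.16 (1.08 to 1.24). H3f3a gave 55.9% of the H3.3 reads in control (54.2 to 57.6) and 48.5% in OTD (46.8 to 50.1), a share that no scaling between libraries can alter. The summed level was 248.5 in control and 246.1 in OTD, a ratio of 0.990 (0.945 to 1.04). The H3f3b transcript shares 0% of its 50-base stretches with other histone transcripts and that of H3f3a 11.2%, chiefly with H3f3c. Most stretches of this pair can thus be told apart among the histone transcripts searched. Copies listed under other symbols were not searched. H3f3a overlaps the antisense gene H3f3aos, and whether strand was used in counting is not given in the sources used here. Of the variant genes described below, H2afj, H2afx and H2afy also overlap a gene on the opposite strand.

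Of the 5 other variant genes at a mean of at least 1, only H2afz had an interval that did not hold 1. H2afz, a gene for H2A.Z, a variant of promoters and enhancers, had 43.3 in control and 37.1 in OTD (577 against 556 reads), which gave a ratio of 0.857 (0.761 to 0.964), but the interval held 1 after scaling to the same total. H2afv, the other H2A.Z gene, had 22.0 and 20.6, a ratio of 0.938 (0.797 to 1.10). H2afy, which encodes macroH2A1, a variant with a large additional domain, had 60.9 and 62.2 (811 against 931 reads), which gave a ratio of 1.02 (0.928 to 1.12). H2afj had 29.0 and 29.8, a ratio of 1.03 (0.894 to 1.18). H2afx, whose protein is phosphorylated at DNA double-strand breaks and whose gene carries the stem-loop printed above, had 8.56 and 7.01 (114 against 105 reads), which gave a ratio of 0.819 (0.622 to 1.08). The interval of H2afx held 1.

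The annotated transcript end divided the replication-linked genes in a grouping that was chosen after the values were seen. The 20 genes whose stem-loop lies within 100 bases of the annotated end summed to 183.8 in control and 149.6 in OTD, a ratio of 0.814 (0.768 to 0.862). The 20 genes with over 100 annotated bases after the loop summed to 162.2 and 155.4, a ratio of 0.958 (0.903 to 1.02). Genes with no loop and only a coding sequence annotated (14 genes) had 0.824 (0.707 to 0.960), and those with no loop and a longer annotated end (5 genes, Hist1h2bc and Hist2h2be among them) had 1.06 (0.972 to 1.15). Few genes held most reads of the first and the last of these groups. In control, Hist2h2aa1 held 948, Hist1h4m 592 and Hist1h4h 494 of the 2447 reads of the first, and Hist1h2bc 969 of the 1046 of the last. The sum of the genes that end near the loop was thus the lower one. Of the 14 of them at a mean of at least 1, 6 had an interval below 1, and Hist1h2ap had one above 1. Over all listed genes at that level the shares were 14.2% below 1 and 15.4% above 1. Sharing between copies moved with this grouping: 13 of the first 20 genes and 1 of the second 20 had over 50% of their stretches in other histone transcripts. Among genes with at most 50% shared, the ratios were 0.804 (0.715 to 0.903) for the 7 that end near the loop and 0.962 (0.905 to 1.02) for the 19 with a longer end. The ratio of the 7 genes rested mostly on Hist1h4h, with 494 of their 614 reads in control and 459 of 555 in OTD. Histone type moved with the grouping as well. Hist1h1c, Hist1h1d and Hist1h1e, the H1 genes with ratios above 1, have 840, 4884 and 1153 annotated bases after the loop. All are thus among these 19 genes, and the part of histone type was not tested.

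**Figure D5:**
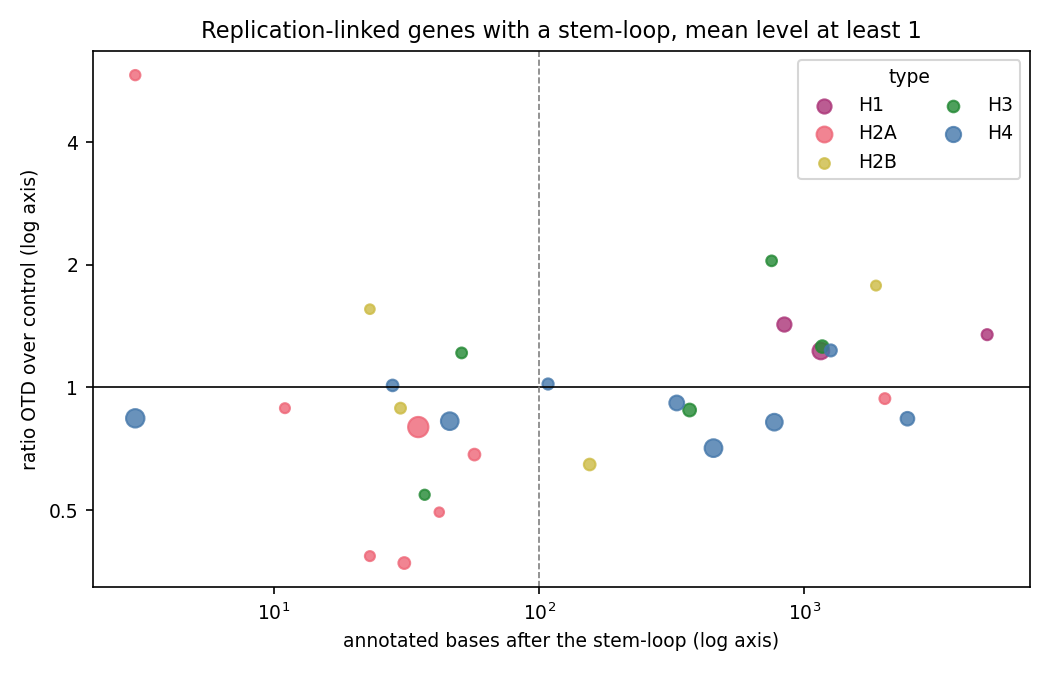
Each point is 1 replication-linked gene with a stem-loop and a mean level of at least 1, placed by the annotated bases after its stem-loop (log axis) and its ratio of OTD over control (log axis), with larger points for more reads and colours for the histone type. Left of the dashed line at 100 bases most points lie below 1, with Hist1h2ap at 5.84 as the far exception, and right of it the points lie on both sides.

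Transcript length moved with the ratio in the whole library as well. Other listed genes with a longest annotated transcript under 700 bases had a median log2 ratio of −0.092 (123 genes), those of 700 to 1500 bases −0.037 (1093 genes) and those over 1500 bases 0.013 (10266 genes). The replication-linked genes had medians of −0.25 (23 genes), −0.12 (7 genes) and 0.29 (9 genes) in the same bins. The order was the same and the span wider in the histone genes. The part of transcript length in the histone differences was not tested.

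The genes that process, store and deposit histones were listed with earlier results of these data known. Of 15 genes for 3′ end processing of histone mRNA, 13 reached a mean of 1, and 0 of them passed 1.5-fold, with a median log2 ratio of 0.064. Slbp, the gene of the stem-loop-binding protein, stood at 13.8 in control and 12.6 in OTD (184 against 188 reads), which gave a ratio of 0.908 (0.737 to 1.12). Npat, a coactivator of histone gene transcription, stood at 11.7 and 11.8, a ratio of 1.00 (0.804 to 1.25). Sympk and Cpsf3, subunits of the cleavage complex, had ratios of 1.05 (0.948 to 1.15) and 1.11 (0.989 to 1.25), and 1 gene of the list, Srrt, had an interval above 1, at 1.17 (1.02 to 1.35).

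Of the 14 genes for histone mRNA decay, 0 passed 1.5-fold, while 3 had an interval above 1 and 1 had one below it, counts near the 15.4% and 14.2% of all listed genes. Zcchc11, a terminal uridylyltransferase, stood at 45.1 in control and 54.6 in OTD, a ratio of 1.21 (1.09 to 1.35), and Zcchc6, of the same family, at 108.0 and 117.0, a ratio of 1.08 (1.01 to 1.16). The exonuclease gene Xrn1 had a ratio of 1.27 (1.09 to 1.49). Lsm1, a subunit of the ring that binds oligouridine tails, stood at 10.1 and 7.28, a ratio of 0.718 (0.553 to 0.931). The median log2 ratio of the list was 0.039.

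Of 33 histone chaperone and deposition genes, 30 reached a mean of 1, with a median log2 ratio of 0.062, and 4 had an interval above 1 and 3 one below it, which does not exceed the shares of 15.4% and 14.2% over all listed genes. Tonsl, a reader of newly deposited H4, was the 1 gene past 1.5-fold (2.74% of all listed genes were), with 8 reads in control and 24 in OTD. Anp32e, which removes H2A.Z, stood at 17.0 and 22.5, a ratio of 1.33 (1.12 to 1.58), and Supt16, a subunit of the chaperone FACT, had a ratio of 1.20 (1.07 to 1.33). Genes of the H3.3 chaperones had Hira at 14.8 and 13.0 with a ratio of 0.880 (0.718 to 1.08), Atrx at 1.05 (0.972 to 1.14) and Daxx at 1.19 (0.944 to 1.51). Each of these 3 intervals held 1.

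Genes of S phase and mitosis were mostly low in both pools. Of 32 S phase genes, 25 reached a mean of 1, with a median log2 ratio of −0.10, 3 with an interval above 1 and 2 below it, fewer than the shares of 15.4% and 14.2% would give. The sum of the list went the other way from its median, with a ratio of 1.07 (1.02 to 1.12). Pcna, the sliding clamp of DNA polymerase, stood at 21.6 in control and 19.97 in OTD, a ratio of 0.926 (0.785 to 1.09). Rrm2, the S phase subunit of ribonucleotide reductase, was the 1 gene past 1.5-fold (1.33% of all listed genes were that much lower). It had 25 and 11 reads, a ratio of 0.391 (0.174 to 0.824). Tyms, thymidylate synthase, went the other way, with 829 and 1284 reads and a ratio of 1.38 (1.26 to 1.505). The S phase list as a whole had 3088 reads in control and 3716 in OTD, so Tyms weighs heavily in its sum. Of 16 genes of G2 and mitosis, 4 reached a mean of 1, and the whole list had 176 reads in control and 173 in OTD. Its proliferation marker Mki67 had 47 and 46 reads, a ratio of 0.870 (0.567 to 1.34).

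RNAs that lack a poly(A) tail or are kept in the nucleus were compared in the same libraries. Of the 12 listed for this, 6 were in the table. Rmrp, the RNA of RNase MRP, stood at 261.6 in control and 221.8 in OTD, a ratio of 0.848 (0.808 to 0.890), and Rpph1, the RNA of RNase P, had a ratio of 0.794 (0.721 to 0.873). The telomerase RNA Terc had 108 and 90 reads and a ratio of 0.741 (0.554 to 0.989). These 3 RNAs were lower in the OTD pool beyond counting error. The long nuclear RNAs differed, with Malat1 at 1.33 (1.31 to 1.35) and Neat1 at 0.958 (0.916 to 1.00), and Rn45s had 1.74 (1.73 to 1.75).

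Markers of other cell types of the liver were read beside the histone genes, since cells that divide would add replication-linked mRNA. Erythroid markers summed to 352.7 in control and 426.8 in OTD, a ratio of 1.21 (1.17 to 1.26), with Hba-a2 at 1.76 (1.64 to 1.90) and the precursor gene Klf1 at 46 and 71 reads. Of the 8 erythroid markers at a mean of at least 1, 3 had an interval above 1, 4 held 1 and 1, Tfrc, had one below 1, at 0.864 (0.761 to 0.981). Kupffer cell markers summed to 384.4 and 355.2, a ratio of 0.924 (0.889 to 0.960), and 8 of 9 had a log2 ratio below 0. Sinusoidal endothelial markers had a ratio of sums of 0.937 (0.906 to 0.970), stellate cell markers 0.967 (0.936 to 0.998) and cholangiocyte markers 0.934 (0.835 to 1.04). Stellate markers went both ways, with 1 interval above 1 and 2 below, and so did cholangiocyte markers, whose median log2 ratio was 0.069 and of which Krt7 (10 and 26 reads) passed 1.5-fold. Of the 6 listed monocyte and neutrophil markers only Lyz2 reached a mean of 1, with 444 of their 478 reads in control and a ratio of 1.12 (0.988 to 1.27). Hepatocyte markers had a ratio of sums of 0.880 (0.878 to 0.882). Over all listed genes at a mean of at least 1, 15.4% had an interval above 1 and 14.2% one below 1. At that level 48.8% had a log2 ratio below 0 and 2.74% passed 1.5-fold upwards. The part of the cell types named here in the histone differences was not tested.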

How the data were processed

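Each group had 1 ribosome-depleted, strand-keeping library from 200 ng of pooled liver RNA, per the labels' protocols. The authors deposited 1 normalized signal per gene symbol and library, made from gene reads. The submitters' processing notes list edgeR, RSEM, Bowtie2, Trimmomatic 0.38 and mm10 without saying what each did. Not given in the sources used here: how reads were divided between gene copies, which genes were filtered, and whether strand was used. In both columns 100% of the values were whole multiples of 1 read within 1e-06, and the columns were scaled by library total and by factors of 0.981 (control) and 1.02 (OTD). The count test asked for such reads needs replicates: with 1 library per group edgeR has no residual degrees of freedom, so it was not run.

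Ratios of levels have no pseudocount, and log2 ratios use a pseudocount of 1, which understates low genes. Members, gene lists and rules were chosen with earlier results of these data known. The genes named were the variant genes at a mean of at least 1, the 3 members of each type with most reads, the 3 highest and lowest log2 ratios among members of each class with at least 100 reads, and for the lists up to 3 genes with most reads and 2 with the largest ratio, plus Slbp, Npat, Pcna and Mki67. Not all are printed, and genes of the lists outside it were picked with their values known. GENCODE M21 on GRCm38 matched 68 of 68 members by symbol. Sharing was the percentage of a transcript's 50-base stretches found in other histone transcripts. Tools were scipy 1.17.1, pandas 2.3.3, numpy 2.4.6 and matplotlib 3.10.9 under Python 3.11.15, and the method was tested on simulated reads. The simulation held counting error only, with no variation between pools and no shared copies, so it cannot speak to those limits.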

Additional observations from a re-analysis of the deposited data

How the results depend on the processing

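The ratio of the summed levels of replication-linked genes lay between 0.880 and 0.965 under the alternatives: 0.944 with both libraries scaled to 1 total, 0.956 when Rn45s was left out of that total, and 0.965 without the members that mostly share sequence, where its interval (0.923 to 1.01) held 1. That of the variant genes turned to 1.01 and 1.03 under these scalings and to 1.04 without H3f3a, the member with most reads. The ratio between the classes was 0.850 without the member of each class with most reads and 0.989 without the shared copies. The replication-linked median log2 ratio of −0.12 became −0.058 without Rn45s in the scaling, −0.035 with a pseudocount of 10, −0.25 at a mean of at least 10 (9 genes) and −0.023 without shared copies; that of the variant genes, −0.089, became −0.036 at the same total, −0.019 without Rn45s and −0.030 at a mean of at least 10. The counts of 3 higher and 2 lower replication-linked genes became 5 and 4 with a pseudocount of 0.5, 0 and 0 with a pseudocount of 10 or at a mean of at least 10, 1 and 1 at 2-fold, and 4 lower without a filter. The cause of these shifts was not tested where the alternative does not itself remove genes. Leaving out Hist1h2bq and Hist1h2br, chosen after seeing the data, gave 0.911 for the replication-linked sum. The sums of H1 (1.26 to 1.32), H2A (0.784 to 0.825) and H4 (0.826 to 0.869) kept their side of 1 under the 3 scalings. Under the same total with and without Rn45s the intervals of H2B (1.09 and 1.11) and Hist1h2bc (1.10 and 1.11) lay above 1, and without Rn45s that of the Hist1 cluster (0.967) held 1. No paired analysis was possible because each group has 1 pooled library, and leaving out a replicate was not possible for the same reason. Read numbers limit most members: 33 of the 59 replication-linked genes share at most 50% of their stretches, and 19 have at least 100 reads.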
